A study of Mus musculus with 11 samples.

Results

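The genes described here encode the CD3 chains of the T cell receptor (TCR) complex and the proteins that act next to it: *Cd3d*, *Cd3e*, *Cd3g*, *Cd247*, *Lck*, *Zap70*, *Lat*, *Lcp2* and *Cd2*. They were chosen by name, as 9 of the 19058 genes in the table of estimated counts, and all 9 were among the 13937 genes tested. RNA of whole lacrimal glands was sequenced from 11 male NOD mice, a strain in which males spontaneously develop inflammation of these glands, with 1 library per mouse. There were 3 WT mice, 5 *Tlr7* KO mice and 3 *Ifnar1* KO mice. The question was how much of the glandular expression of these genes depended on TLR7, an endosomal sensor of single-stranded RNA, and on the type I interferon (IFN) receptor chain IFNAR1. All groups share the NOD background. The *Tlr7* KO strain carries a single allele, a deletion of 2 base pairs made by CRISPR/Cas9 in NOD embryos, and the *Ifnar1* KO strain is homozygous for its em16 allele. The study's text places the WT and *Tlr7* KO mice at 20 to 22 weeks of age. No age for the *Ifnar1* KO mice is given in the sources used here, so age and genotype cannot be told apart for that group. The study's methods also state that an *Ifnar1* KO sample was dropped as an outlier because it resembled WT in expression and in gland inflammation, so the *Ifnar1* KO mice kept were selected with that outcome known.

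The TCR itself has no signalling domain. Its alpha and beta chains bind the antigen, and the CD3 gamma, delta, epsilon and zeta chains carry the tyrosine motifs that the kinase LCK phosphorylates. ZAP70 docks on these motifs and phosphorylates the adaptors LAT and LCP2, which assemble the enzymes for calcium, Ras and NF-kappa B signalling. CD2 is an adhesion and costimulatory receptor of T cells and NK cells that mouse B cells also carry. Most of these genes are used chiefly by T cells and NK cells, while LCP2 and CD2 are shared with further leukocytes.

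The libraries held 20512315 to 28814250 estimated counts each, which placed 3 counts at 0.082 to 0.158 CPM (counts scaled to the TMM-adjusted size of each library). The tissue label was met by secretory genes of the gland. Lactoperoxidase (*Lpo*) stood at 1590 ± 683 CPM in WT, 4530 ± 183 in *Tlr7* KO and 4750 ± 319 in *Ifnar1* KO (mean ± SD, as throughout for CPM, n = 3, 5 and 3). *Tlr7* was lower in *Tlr7* KO (0.778 ± 0.176 CPM) than in WT (2.39 ± 0.762), with a log2 fold change of -1.62 (edgeR, SE 0.279, adjusted p = 0.00365). It was also lower in *Ifnar1* KO, at 0.562 ± 0.289 CPM (log2 -2.1, SE 0.452, adjusted p = 0.026). Between the KO groups the log2 fold change of *Tlr7* was 0.45 (SE 0.378, adjusted p = 0.585), so its transcript level did not separate them. *Ifnar1* was at 13.5 ± 2.62 CPM in WT, 9.01 ± 0.648 in *Ifnar1* KO and 9.55 ± 1.08 in *Tlr7* KO, so its transcript level did not separate the *Ifnar1* KO mice from the *Tlr7* KO mice. The scaling factors (TMM) ran from 0.688 in *Tlr7* KO 5 to 1.48 in WT 3. Mice are named by group and the number in their label.

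The CD3 genes *Cd3g*, *Cd3d* and *Cd3e* lie side by side on mouse chromosome 9 (GRCm38, GENCODE M21). *Cd3g* spans chr9:44969572-44980431 on the minus strand and *Cd3d* spans chr9:44981786-44987339 on the plus strand, so that they run away from each other with 1355 bases between their starts. *Cd3e* (chr9:44998740-45009627, minus strand) follows after another 11400 bases. The other members are dispersed: *Cd247* at chr1:165788681-165877277 (plus), *Zap70* at chr1:36761798-36782818 (plus), *Lck* at chr4:129548344-129573641 (minus), *Lat* at chr7:126363824-126369570 (minus), *Lcp2* at chr11:34046920-34092295 (plus) and *Cd2* at chr3:101275899-101287939 (minus). Because these genes moved together, the 250 bases before 6 of their annotated starts are shown (RefSeq, GRCm38.p6, 5′ to 3′ on the gene's strand). Capitals mark matches on either strand to AGGAAG, a core of the ETS factors of lymphocytes, or TGTGGT, a core of the RUNX factors. The windows are chr9:44980432-44980681 for *Cd3g*, chr9:44981536-44981785 for *Cd3d*, chr1:165788431-165788680 for *Cd247* and chr1:36761548-36761797 for *Zap70*. For *Lck*, which has a distal and a proximal start, they are chr4:129573642-129573891 and chr4:129558373-129558622.
Cd3g: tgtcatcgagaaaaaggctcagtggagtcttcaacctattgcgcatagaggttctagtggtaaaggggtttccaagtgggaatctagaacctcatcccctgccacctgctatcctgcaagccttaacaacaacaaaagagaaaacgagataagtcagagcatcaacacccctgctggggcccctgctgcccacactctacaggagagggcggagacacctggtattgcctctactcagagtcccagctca
Cd3d: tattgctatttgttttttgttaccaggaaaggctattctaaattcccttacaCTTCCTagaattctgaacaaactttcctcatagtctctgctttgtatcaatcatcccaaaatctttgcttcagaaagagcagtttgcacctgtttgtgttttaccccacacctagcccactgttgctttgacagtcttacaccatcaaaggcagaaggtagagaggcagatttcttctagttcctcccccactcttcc
Cd247: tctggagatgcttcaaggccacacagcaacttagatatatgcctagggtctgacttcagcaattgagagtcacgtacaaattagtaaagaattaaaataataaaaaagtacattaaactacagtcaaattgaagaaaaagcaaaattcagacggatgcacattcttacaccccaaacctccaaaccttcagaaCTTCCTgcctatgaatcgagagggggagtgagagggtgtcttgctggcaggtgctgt
Zap70: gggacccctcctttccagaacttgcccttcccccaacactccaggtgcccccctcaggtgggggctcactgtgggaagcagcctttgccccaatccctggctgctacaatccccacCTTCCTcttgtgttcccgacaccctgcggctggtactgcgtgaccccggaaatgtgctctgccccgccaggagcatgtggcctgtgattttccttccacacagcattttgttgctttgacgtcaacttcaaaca
Lck distal: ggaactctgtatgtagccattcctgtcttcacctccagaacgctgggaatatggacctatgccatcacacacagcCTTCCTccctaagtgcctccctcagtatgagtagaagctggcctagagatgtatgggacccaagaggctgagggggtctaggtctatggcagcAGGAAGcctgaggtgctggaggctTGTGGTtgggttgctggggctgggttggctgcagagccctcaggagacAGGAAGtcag
Lck proximal: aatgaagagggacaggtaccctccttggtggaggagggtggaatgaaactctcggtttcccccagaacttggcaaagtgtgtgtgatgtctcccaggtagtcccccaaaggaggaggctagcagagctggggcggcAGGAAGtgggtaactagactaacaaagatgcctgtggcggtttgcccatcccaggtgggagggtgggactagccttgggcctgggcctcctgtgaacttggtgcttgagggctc

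RefSeq windows were held for 8 of the 9 genes, 11 windows in all. The ETS core AGGAAG was found in 9 of them, against 29.5% of 32817 mouse windows of this length, and the divergent *Cd3g* window shown above had none. *Zap70* has 3 annotated starts with a window each, of which the first is shown. The window of its last start (chr1:36778734-36778983) was the other one without an ETS core. The distal *Lck* window held 3 ETS cores and 1 RUNX core. The RUNX core TGTGGT was in 2 of the 11 windows (14.0% of all). The E-box CANNTG was in 10 (66.2% of all). The interferon-stimulated response element was in 0 (2.97% of all), the gamma-activated sequence TTCNNNGAA in 1, that of *Cd3d*, where it shared bases with the ETS core (7.01% of all), and TATAAA in 0 (12.4% of all). Each motif was searched on both strands, and the matches describe these letters in these windows only.

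The 9 genes were compared with each other per length, taken as the union of all annotated exons of a gene. Which of the annotated transcripts were expressed was not examined, so the order also depends on the annotation. Per kilobase of exon, the order in WT was *Cd2* (5.53 ± 3.31 CPM per kb), *Lck* (3.94 ± 1.95), *Cd3g* (2.70 ± 1.29), *Cd3d* (1.93 ± 1.05), *Lat* (1.39 ± 0.482), *Zap70* (1.26 ± 0.619), *Lcp2* (1.21 ± 0.721), *Cd3e* (1.16 ± 0.592) and *Cd247* (0.943 ± 0.446). Each gene differed from its neighbour in this order by less than the larger of their SDs over mice. In *Tlr7* KO the highest level per kb was that of *Lck* (0.939 ± 0.828), ahead of *Cd2* (0.813 ± 0.714), and in *Ifnar1* KO it was again *Cd2* (0.584 ± 0.593) ahead of *Lck* (0.503 ± 0.493), also within their SDs. The plot of CPM by mouse shows all values.

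**Figure D1:**
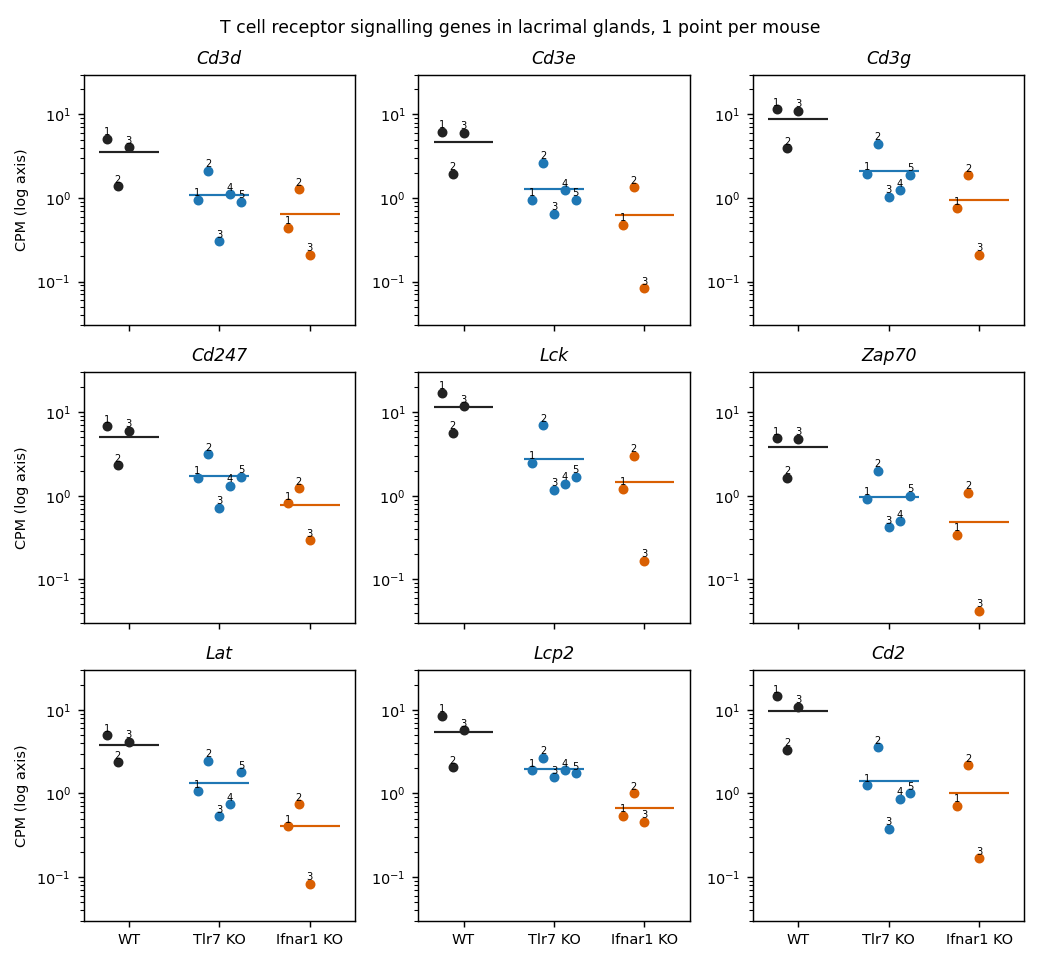
CPM (log axis) of each of the 9 genes in WT, *Tlr7* KO and *Ifnar1* KO lacrimal glands, 1 numbered point per mouse, with the group mean as a line. WT 1 and WT 3 lie above every KO mouse for all 9 genes, WT 2 lies below *Tlr7* KO 2 for all 9, and *Ifnar1* KO 3 is the lowest mouse for all 9.

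Among the CD3 chains, CD3 epsilon pairs with both the gamma and the delta chain. *Cd3e* was at 6.22, 1.94 and 6.01 CPM in WT 1 to 3. It was at 0.956, 2.65, 0.645, 1.24 and 0.950 CPM in *Tlr7* KO 1 to 5, and at 0.476, 1.34 and 0.0837 CPM in *Ifnar1* KO 1 to 3. WT 2 was the low mouse of its group and lay below *Tlr7* KO 2, the high mouse of the *Tlr7* KO group, whereas no *Ifnar1* KO mouse reached WT 2. *Cd3e* was lower than in WT by both tests, at -1.89 on the log2 scale in *Tlr7* KO (SE 0.472, adjusted p = 0.0152) and -2.91 in *Ifnar1* KO (SE 0.768, adjusted p = 0.0399). Between the KO groups it was 1.0 higher in *Tlr7* KO on the log2 scale, which did not pass the test (SE 0.666, adjusted p = 0.485). Fewer T cells in the gland and less of these transcripts per T cell cannot be told apart in whole tissue, here or for any gene below.

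*Cd3g*, the gene of the chain that pairs with epsilon in the first of the CD3 dimers, had the highest mean level per kb of the CD3 genes in WT and *Tlr7* KO. It stood at 11.6, 3.96 and 11 CPM in the WT mice, at 1.95, 4.43, 1.03, 1.24 and 1.90 in the *Tlr7* KO mice and at 0.749, 1.87 and 0.209 in the *Ifnar1* KO mice. *Tlr7* KO 2 again stood apart at the top of its group. Its log2 fold changes were -2.08 in *Tlr7* KO (SE 0.470, adjusted p = 0.0103) and -3.25 for *Ifnar1* KO (SE 0.682, adjusted p = 0.0253). *Cd3d*, transcribed from the other side of the same intergenic stretch, ranged from 1.39 to 5.09 CPM in WT, 0.304 to 2.13 in *Tlr7* KO and 0.209 to 1.27 in *Ifnar1* KO, with log2 fold changes of -1.71 and -2.48. *Cd247*, which encodes the zeta chain on chromosome 1, ranged from 2.32 to 6.77, 0.721 to 3.13 and 0.293 to 1.23 CPM, with log2 fold changes of -1.58 and -2.70. The order of the mice was the same at the extremes for the neighbouring genes and for the distant *Cd247*.

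LCK is the Src-family kinase, held by CD4 and CD8, that phosphorylates the CD3 chains. *Lck* was at 17.1, 5.69 and 11.8 CPM in WT 1 to 3. It was at 2.49, 7.0, 1.18, 1.4 and 1.69 CPM in *Tlr7* KO 1 to 5 and at 1.22, 3.03 and 0.167 CPM in *Ifnar1* KO 1 to 3. *Tlr7* KO 2 was 4.14 times the mean of the other 4 *Tlr7* KO mice. The log2 difference from WT was -2.07 in *Tlr7* KO (SE 0.556, adjusted p = 0.0200) and -2.99 for *Ifnar1* KO (SE 0.760, adjusted p = 0.0367). ZAP70 is the kinase recruited to the phosphorylated CD3 chains. *Zap70* was at 4.89, 1.64 and 4.81 CPM in WT, at 0.918, 2.0, 0.418, 0.494 and 1.0 in *Tlr7* KO and at 0.340, 1.08 and 0.0419 in *Ifnar1* KO. The last value, of *Ifnar1* KO 3, rested on 1 count. The log2 fold changes of *Zap70* were -1.99 (SE 0.497, adjusted p = 0.0153) and -2.97 (SE 0.798, adjusted p = 0.0418).

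LAT is the membrane adaptor that ZAP70 phosphorylates. *Lat* ranged from 2.36 to 4.96 CPM in WT, 0.532 to 2.48 in *Tlr7* KO and 0.0837 to 0.747 in *Ifnar1* KO, with log2 fold changes of -1.56 (SE 0.446, adjusted p = 0.0258) and -3.21 (SE 0.589, adjusted p = 0.0230). LCP2 is the cytosolic adaptor that joins LAT, and it also serves myeloid cells, mast cells, NK cells and platelets. *Lcp2* was at 8.48, 2.07 and 5.68 CPM in WT 1 to 3. It was at 1.91, 2.69, 1.56, 1.89 and 1.74 CPM in the *Tlr7* KO mice and at 0.544, 1.01 and 0.460 CPM in the *Ifnar1* KO mice. The *Tlr7* KO mice lay close together for *Lcp2*, with an SD of 22.2% of the mean, against 52.2% to 88.2% for the other 8 genes. *Lcp2* passed both tests, at -1.47 in *Tlr7* KO (SE 0.371, adjusted p = 0.0157) and -3.03 for *Ifnar1* KO (SE 0.560, adjusted p = 0.0230) on the log2 scale.

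CD2 binds CD48 on neighbouring cells in the mouse. *Cd2* was at 14.6, 3.33 and 10.9 CPM in WT 1 to 3, at 1.26, 3.56, 0.380, 0.865 and 1.0 CPM in *Tlr7* KO 1 to 5 and at 0.715, 2.17 and 0.167 CPM in *Ifnar1* KO 1 to 3. *Tlr7* KO 2 was just above WT 2, and the other *Tlr7* KO mice were below it. *Cd2* had the largest log2 fold change of the 9 genes in *Tlr7* KO, -2.78 (SE 0.613, adjusted p = 0.00934). Relative to WT, *Ifnar1* KO gave -3.26 for it (SE 0.803, adjusted p = 0.0340), next to *Cd3g*.

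In WT versus *Tlr7* KO, all 9 genes were DE and up-regulated in WT, against 17.4% of the 13937 genes tested (edgeR's quasi-likelihood test, Benjamini-Hochberg adjusted p under 0.05). In either direction 32.8% of all genes were called, and 44.9% had an unadjusted p under 0.05. Their log2 fold changes ran from -2.78 (*Cd2*) to -1.47 (*Lcp2*) with a median of -1.89, beside a median of -0.037 over all genes tested. The groups overlapped for all 9 genes, through WT 2 and *Tlr7* KO 2, while 30.8% of all genes did not overlap, with 14.2% of all genes lower in *Tlr7* KO. The count of calls rested on the WT mice. Without WT 1, or without WT 3, 2 of the 9 genes passed (*Cd3g* and *Cd2*), with median log2 fold changes of -1.64 and -1.68, where 20.9% and 20.2% of all genes tested passed. Without WT 2 all 9 passed, with a median of -2.25, and 48.9% of all genes did. Leaving out *Tlr7* KO 1 or *Tlr7* KO 4 left 6 genes, leaving out *Tlr7* KO 3 or *Tlr7* KO 5 left 8, and without *Tlr7* KO 2 all 9 passed with a median of -2.33. The share of all genes called in these 5 fits was 23.6% to 30.8%. The direction did not change for any gene.

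In WT versus *Ifnar1* KO, all 9 genes were again DE and up-regulated in WT, against 12.4% of genes tested, with 19.2% called in either direction and 37.6% at an unadjusted p under 0.05. The log2 fold changes ran from -3.26 (*Cd2*) to -2.48 (*Cd3d*), with a median of -2.99 beside -0.017 over all genes. The groups did not overlap for any of the 9 genes, as for 41.8% of all genes, with 21.1% lower in *Ifnar1* KO. The removal of the inflamed *Ifnar1* KO mouse by the study bears on this separation and on the fold changes, and its part was not tested. The adjusted p-values, 0.0230 to 0.0440, were close to the threshold, and leaving out WT 1, WT 3 or the first or the third *Ifnar1* KO mouse left 0 of the 9 genes past it. In these fits 0.0991%, 0.806%, 0.0% and 0.0% of all genes tested passed, so the count of 0 was not particular to the 9 genes. The median log2 fold changes without these mice were -2.68, -2.98, -2.83 and -2.49, with adjusted p-values of 0.0655 to 0.142. All 9 passed without WT 2 (median -3.32, 34.4% of all genes called) or without *Ifnar1* KO 2 (median -4.02, 11.4%). Both comparisons with WT use the same 3 WT mice, so they are not independent of each other.

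**Figure D2:**
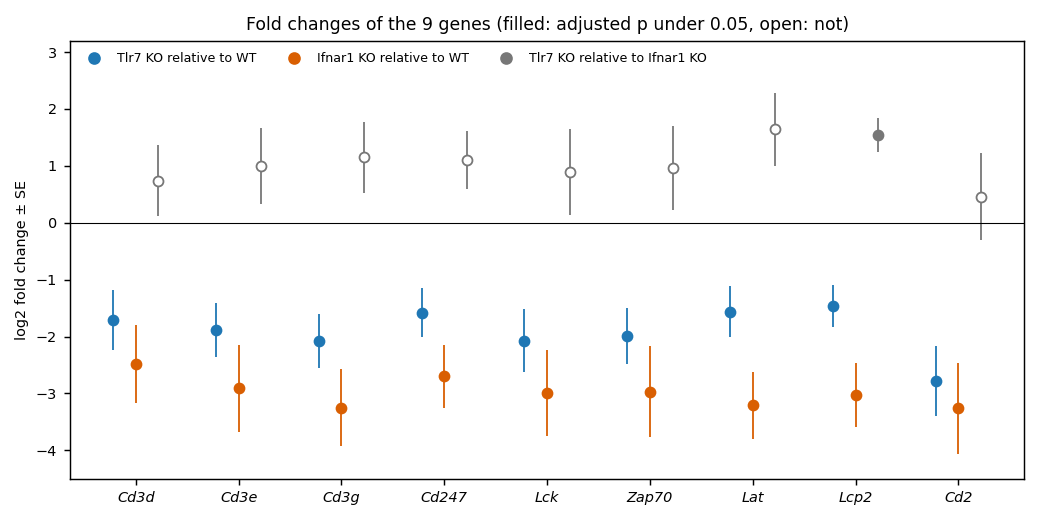
Log2 fold change ± SE (edgeR) of each of the 9 genes in *Tlr7* KO relative to WT, in *Ifnar1* KO relative to WT and in *Tlr7* KO relative to *Ifnar1* KO, with filled points for adjusted p under 0.05. The 18 points relative to WT are filled and lie at or below -1.47, and *Lcp2* alone is filled between the KO groups.

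A direct comparison of the KO groups asks whether the genes differed between the *Tlr7* KO and the *Ifnar1* KO mice. The study dropped a WT-like *Ifnar1* KO mouse and no *Tlr7* KO mouse. The age of the *Ifnar1* KO mice is not given in the sources used here. Genotype, this selection and age cannot be told apart in this comparison, and their parts were not tested. *Lcp2* was the only member that passed, at a log2 fold change of 1.54 (SE 0.304, adjusted p = 0.0364) in *Tlr7* KO relative to *Ifnar1* KO, where 0.926% of genes tested were higher in *Tlr7* KO, 0.868% were lower and 1.79% were called in all. The call was lost with library size only (log2 1.35, adjusted p = 0.0816) and in a single fit of all 11 mice (log2 1.54, adjusted p = 0.17). At an unadjusted p under 0.05 there were 2 members and 16.3% of all genes. It was also the only member whose KO groups did not overlap (10.7% of all genes, 5.24% being lower in *Tlr7* KO): the lowest *Tlr7* KO mouse had 1.56 CPM and the highest *Ifnar1* KO mouse 1.01. *Lat* had a larger but less even difference, 1.64 on the log2 scale (SE 0.639), with an unadjusted p of 0.0278 and an adjusted p of 0.244. The other 7 genes had log2 fold changes from 0.46 (*Cd2*, SE 0.762) to 1.15 (*Cd3g*, SE 0.625), all higher in *Tlr7* KO and none past the test, beside a median of 0.001 over all genes. The value of *Cd2* was -0.02 without *Ifnar1* KO 3 and -0.22 without *Tlr7* KO 2. The call of *Lcp2* remained without *Ifnar1* KO 2 (log2 1.95, adjusted p = 0.00758) and was lost without any 1 of the other 7 mice, where its log2 fold change was 1.34 to 1.61 and its adjusted p 0.0628 to 0.137. In those 7 fits 0.61% to 1.03% of all genes were called, against 6.29% without *Ifnar1* KO 2.

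Since LCP2 also serves myeloid cells, mast cells, platelets and NK cells, their markers are given beside this result. The summed level of 7 myeloid markers (*Adgre1*, *Csf1r*, *Cd68*, *Itgam*, *Lyz2*, *C1qa*, *Cd14*) was 179 to 213 CPM in *Tlr7* KO and 59.7 to 163 CPM in *Ifnar1* KO, with 0 of 7 past the test between the KO groups and a median of 0.81 on the log2 scale. Most of that sum was *Lyz2*, at 134 ± 9.75 CPM in *Tlr7* KO and 65.9 ± 40.5 in *Ifnar1* KO (log2 1.02, SE 0.302, adjusted p = 0.132). No myeloid marker was at 0 in any mouse. *Fcer1g*, which encodes the gamma chain of Fc receptors and stands in for CD247 in myeloid cells, passed the test between the KO groups (5.37 ± 1.04 CPM in *Tlr7* KO, 2.20 ± 0.796 in *Ifnar1* KO, log2 1.29, SE 0.236, adjusted p = 0.0290). Mast cell markers summed to 10.3 to 13.1 CPM in *Tlr7* KO and 10.5 to 11.5 in *Ifnar1* KO, and platelet markers to 3.94 to 5.07 and 2.42 to 4.0 CPM. The 5 NK cell markers summed to 1.19 to 3.69 CPM in *Tlr7* KO and 0.167 to 1.01 in *Ifnar1* KO, with a median log2 fold change of 1.9 and 0 of 5 past the test (lowest adjusted p = 0.126). Neither the NK cell sums nor the myeloid sums overlapped between the KO groups. Of all genes tested, taken singly, 10.7% did not overlap between these groups and 1.79% were called. The part of these cells in the *Lcp2* difference was not tested.

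Across mice the 9 genes rose and fell together. WT 1 was the highest of all 11 mice for 9 of 9 genes, WT 2 the lowest WT mouse for 9 of 9, and *Tlr7* KO 2 and *Tlr7* KO 3 the highest and lowest of their group for 9 of 9. *Ifnar1* KO 2 was the highest of its group and *Ifnar1* KO 3 the lowest of all mice for 9 of 9. Summed over the genes, WT 1 to 3 had 79.7, 24.7 and 64.4 CPM, *Tlr7* KO 1 to 5 had 13.2, 30.1, 6.76, 10.3 and 12.7, and *Ifnar1* KO 1 to 3 had 5.72, 13.7 and 1.72. The B cell markers had the same low WT mouse and the same high *Tlr7* KO mouse, with sums of 240.0, 68.6 and 210.0 CPM in WT 1 to 3, 43.9 CPM in *Tlr7* KO 2 and 4.63 to 16.9 CPM in the other *Tlr7* KO mice. In *Ifnar1* KO 3, 3 genes were at or below 3 counts (*Zap70*, *Lat* and *Cd3e*), and no gene was that low in any other mouse. Pearson's r of log2 CPM between members ran from 0.864 to 0.994 over the 36 pairs, with a median of 0.966 (11 libraries, a description that includes the differences between groups and shares each library's depth). The lowest value was that of *Cd2* with *Lcp2* and the highest that of *Zap70* with *Cd3g*.

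**Figure D3:**
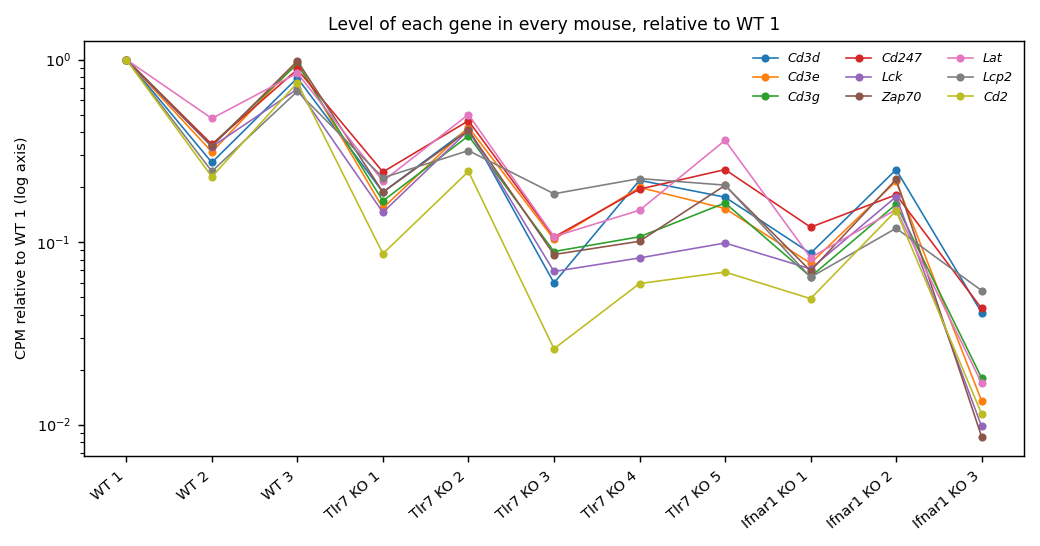
CPM of each of the 9 genes in every mouse, relative to WT 1 (log axis), with mice on the horizontal axis by group and 1 line per gene. The lines run in parallel with a dip at WT 2 and a peak at *Tlr7* KO 2, *Cd2* lies lowest in *Tlr7* KO 1 to 5, and *Lcp2* drops least in *Ifnar1* KO 3.

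The same pattern over mice was most closely followed by *Cd48* (r = 0.996 with the mean of the 9 genes), *Il2rg* (0.995), *Coro1a* (0.994), *Tap2* (0.993) and *Ptprc* (0.993), among 11486 genes of at least 1 CPM compared over the 11 libraries. *Cd48* encodes the ligand of CD2, *Il2rg* the common gamma chain of cytokine receptors, *Coro1a* a leukocyte actin regulator, *Tap2* a peptide transporter of MHC class I loading and *Ptprc* the leukocyte phosphatase CD45. None of these is a gene of T cells alone. *Ptprc* was at 47.3 ± 25.1 CPM in WT, 9.56 ± 5.83 in *Tlr7* KO and 4.62 ± 3.61 in *Ifnar1* KO, with log2 fold changes of -2.31 and -3.38 relative to WT, beside member medians of -1.89 and -2.99.

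To ask whether members moved by unequal amounts, each was expressed relative to *Cd3e* in the same mouse, as a difference of log2 CPM. Of the 24 differences computed (8 genes, 3 comparisons), 1 had an exact permutation p under 0.05, without adjustment. *Cd2* was above *Cd3e* by 1.22, 0.76 and 0.85 in the WT mice and by 0.37, 0.42, -0.66, -0.48 and 0.07 in *Tlr7* KO 1 to 5. These values did not overlap, and the mean difference was -1.0 (two-sided exact p = 0.0357, where 3 against 5 mice can give no less than 0.0179). By comparison, 15.7% of all genes were shifted relative to *Cd3e* without overlap in this comparison. In *Ifnar1* KO the values of *Cd2* were 0.52, 0.66 and 0.61, with differences of -0.35 (*Ifnar1* KO minus WT) and -0.65 (*Tlr7* KO minus *Ifnar1* KO; exact p = 0.1 and 0.0714, where 0.1 is the least that 3 against 3 can give). The shift between the KO groups was without overlap for *Cd2* and for 1.38% of all genes. It overlapped with the second count table, with a prior count of 5 in place of 2, and relative to *Ptprc*. The mean difference of *Cd2* in *Tlr7* KO stayed between -1.12 and -0.85 with any 1 mouse left out. It rested on the reference gene in part. Relative to *Ptprc*, the difference of *Cd2* in *Tlr7* KO was -0.53 and its groups overlapped. There *Cd3e*, *Cd247* and *Lcp2* were the members without overlap, as were 42.6% of all genes. In *Ifnar1* KO the difference of *Cd2* from WT was 0.03 relative to *Ptprc*, in place of -0.35, and its groups overlapped.

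For the other members in WT and *Tlr7* KO, no difference relative to *Cd3e* reached an exact p under 0.05. *Zap70* was at -0.30 ± 0.06 and -0.38 ± 0.08 log2 units relative to *Cd3e* in WT and *Ifnar1* KO, and at -0.42 ± 0.50 in *Tlr7* KO. *Lcp2* went from 0.15 ± 0.27 in WT to 0.71 ± 0.44 in *Tlr7* KO (exact p = 0.125), and without *Tlr7* KO 2 these values did not overlap, nor did those of 80.9% of all genes. *Lck* went from 1.31 ± 0.30 to 0.89 ± 0.49 (exact p = 0.214), and its groups did not overlap without WT 3, where 16.2% of all genes did not. In WT versus *Ifnar1* KO, *Cd3d* (difference 0.66), *Cd3g* (-0.29) and *Cd2* did not overlap, each at the least possible exact p of 0.1. There the ratio to the falling *Cd3e* was shifted without overlap for 79.7% of all genes, and *Cd3e* in *Ifnar1* KO 3 rested on 2 counts. With a prior count of 0.5 in place of 2, *Cd3d* alone did not overlap (79.2% of all genes). Without *Ifnar1* KO 2, *Cd247* and *Zap70* did not overlap either, in a setting where 95.6% of all genes did not. Relative to *Ptprc*, *Cd3d* and *Cd247* were the members without overlap (92.9% of all genes), and *Cd3g* and *Cd2* overlapped.

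**Figure D4:**
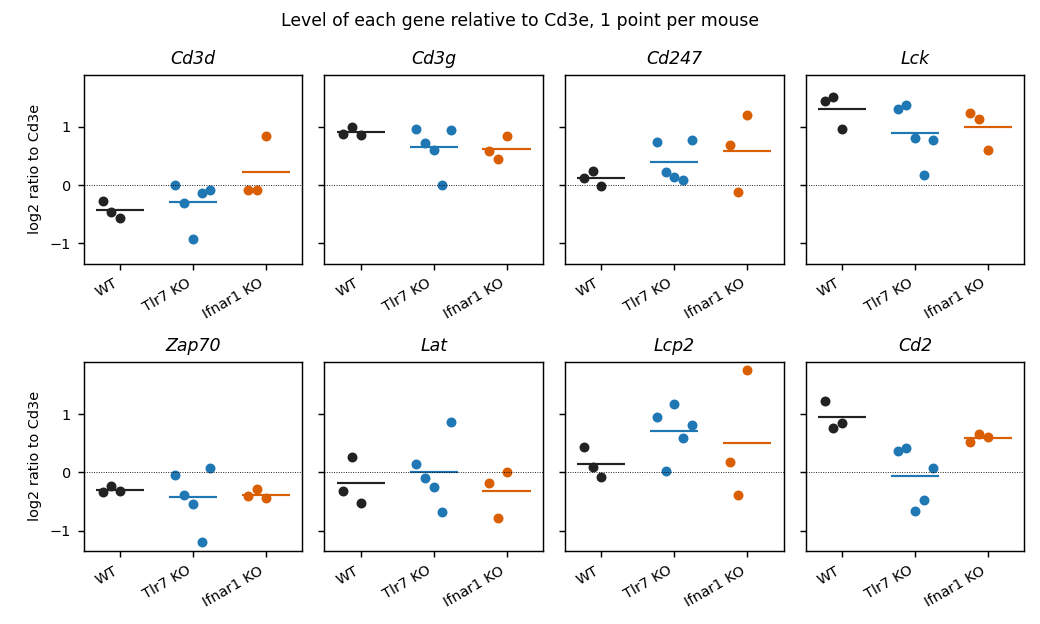
Log2 CPM of each of the other 8 genes minus log2 CPM of *Cd3e* in the same mouse, 1 point per mouse in WT, *Tlr7* KO and *Ifnar1* KO, with group means as lines. *Cd2* in *Tlr7* KO lies at 0.42 and below, under all WT mice (0.76 and above) and all *Ifnar1* KO mice (0.52 and above).

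Further genes of the pathway were taken from 4 lists (55 genes, 54 tested). In *Tlr7* KO relative to WT, 40 were lower, 1 was higher and 13 did not pass, with a log2 median of -1.59. Of all genes tested, 17.4% were lower and 15.3% higher in that comparison. In *Ifnar1* KO relative to WT, 39 were lower, 0 higher and 15 did not pass, with a median of -2.48. There 12.4% of all genes were lower and 6.76% higher. Fewer passed without single mice: 21 without WT 1 and 25 without WT 3 in the comparison with *Tlr7* KO, and 0 without WT 1, 1 without WT 3, and 0 without *Ifnar1* KO 1 or *Ifnar1* KO 3 in that with *Ifnar1* KO. Calls over all genes fell in the same fits, to 2735 and 2601 (20.9% and 20.2% of genes tested) in the former. In the latter they fell to 13, 104, 0 and 0 (0.0991%, 0.806%, 0.0% and 0.0%). Between the KO groups 53 did not pass and 1 was lower in *Tlr7* KO, a share close to the 1.79% of all genes called. This was *Pag1*, the membrane adaptor that recruits the inhibitory kinase CSK (5.78 ± 0.678 CPM in *Tlr7* KO, 9.03 ± 1.18 in *Ifnar1* KO, log2 -0.64, SE 0.122, adjusted p = 0.0321), named after its values were seen. No pathway gene passed with library size only, in the single fit of all 11 mice, or without *Ifnar1* KO 1, *Ifnar1* KO 3 or *Tlr7* KO 1, 2, 3 or 5.

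Of the TCR constant chains and coreceptors, 6 of 9 fell in *Tlr7* KO (median -1.79) and 7 of 9 in *Ifnar1* KO (median -2.77). Of all genes tested, 17.4% and 12.4% fell. *Cd4*, the coreceptor of helper T cells, was at 14.7 ± 7.59 CPM in WT, 3.83 ± 2.18 in *Tlr7* KO and 1.82 ± 1.86 in *Ifnar1* KO, with log2 fold changes of -1.95 and -3.04 (adjusted p = 0.00997 and 0.0295). *Trac*, the constant region of the TCR alpha chain, fell in both (-2.19 and -3.65), and had no count in *Ifnar1* KO 3. *Trbc2*, the constant region of a TCR beta chain, fell in both (-2.11 and -3.5), although its reads are hard to separate from those of the near-identical *Trbc1*. *Cd8a* and *Cd8b1*, the coreceptor chains of cytotoxic T cells, did not pass in either comparison, with log2 fold changes of -1.55 (SE 0.565) and -1.35 (SE 0.800) in *Tlr7* KO and -2.38 (SE 0.863) and -2.71 (SE 0.954) in *Ifnar1* KO, and were singled out after their values were seen.

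Of the kinases, adaptors and regulators used mainly by T cells, 14 of 16 fell in each KO group (medians -2.02 and -3.24). Of all genes, 17.4% fell in *Tlr7* KO and 12.4% in *Ifnar1* KO. *Ptpn22*, a phosphatase that restrains LCK and ZAP70, was at 8.38 ± 3.93 CPM in WT, 1.13 ± 0.854 in *Tlr7* KO and 0.633 ± 0.361 in *Ifnar1* KO, with log2 fold changes of -2.9 and -3.74. *Rasgrp1*, the Ras activator downstream of LAT, stood at 6.79 ± 1.90, 6.75 ± 0.831 and 6.80 ± 1.1 CPM in WT, *Tlr7* KO and *Ifnar1* KO, with log2 fold changes of -0.02 (SE 0.185) and -0.03 (SE 0.241). *Themis* did not pass in either comparison, at -1.45 (SE 0.818) and -2.48 (SE 0.763, adjusted p = 0.0591), and was named after its values were seen.

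Of the pathway genes of broad expression, 18 of 25 fell and 1 rose in *Tlr7* KO (median -1.01), and 16 of 25 fell in *Ifnar1* KO (median -1.12). Of all genes tested, 17.4% fell and 15.3% rose in *Tlr7* KO, and 12.4% fell in *Ifnar1* KO. *Ptpn6*, the phosphatase SHP1 of leukocytes, fell in both (-1.15 and -1.38 on the log2 scale), as did *Grb2*, a ubiquitous adaptor (-0.62 and -0.63). *Nfatc3*, a calcium-regulated transcription factor, fell by 0.31 in *Tlr7* KO and was at -0.21 in *Ifnar1* KO (SE 0.0999, adjusted p = 0.170). The gene that rose in *Tlr7* KO was *Nck1*, an actin adaptor (log2 0.22, adjusted p = 0.0361), also named after its values were seen. Of the CD2 partners, *Cd48* fell in both (-1.42 and -2.49), as did *Pstpip1*, a cytoskeletal partner of the CD2 tail (-2.11 and -2.94). The widely expressed *Cd2ap* and *Cd2bp2*, which also bind the CD2 tail, had log2 fold changes of -0.04 and -0.21 in *Tlr7* KO and 0.09 and -0.21 in *Ifnar1* KO, and did not pass.

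**Figure D5:**
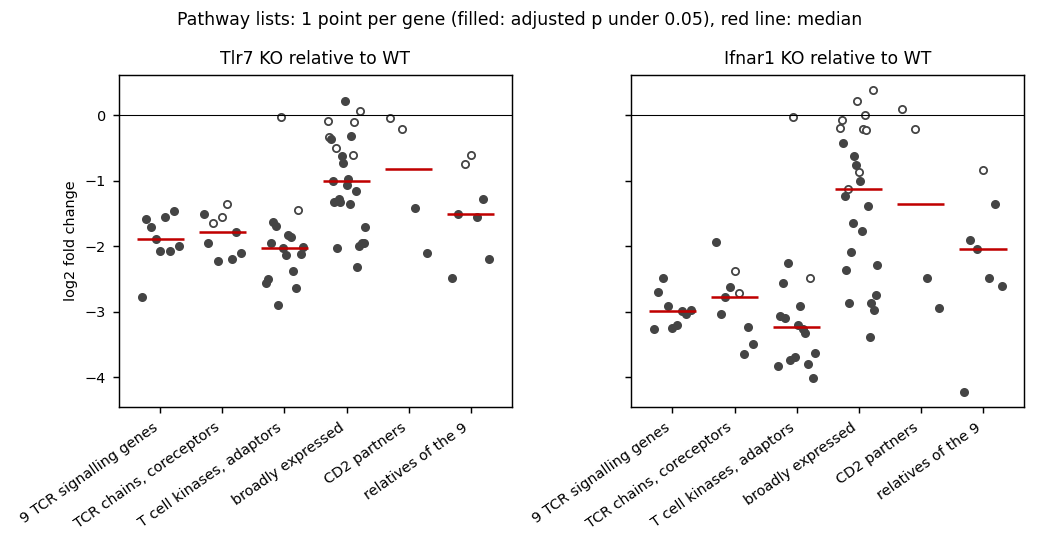
Log2 fold change relative to WT of the 9 genes, of the 4 pathway lists and of relatives of the 9 genes used by other leukocytes, in *Tlr7* KO (left) and *Ifnar1* KO (right), 1 point per gene with filled points for adjusted p under 0.05 and the median as a red line. The median of the 9 genes (-1.89 and -2.99) lies near those of the T cell lists and below those of the broadly expressed genes (-1.01 and -1.12).

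Relatives of the 9 genes that serve B cells or myeloid cells moved in the same direction. Of 7, 5 fell in *Tlr7* KO (median -1.51) and 6 in *Ifnar1* KO (median -2.04), against 17.4% and 12.4% of all genes. *Syk*, the relative of *Zap70* used by B cells and myeloid cells, was at 37.7 ± 18.1 CPM in WT, 8.27 ± 2.66 in *Tlr7* KO and 6.30 ± 2.63 in *Ifnar1* KO, with log2 fold changes of -2.19 and -2.61. *Blk*, a Src-family kinase of B cells, fell in both (-2.49 and -4.23, beside -2.07 and -2.99 for *Lck*), as did *Lyn*, used by B cells and myeloid cells (-1.28 and -1.35). The adaptors *Blnk*, the B cell relative of *Lcp2*, and *Lat2*, the relative of *Lat*, fell in *Tlr7* KO (-1.51 and -1.56) and in *Ifnar1* KO (-1.9 and -2.48). *Fcer1g* fell in *Ifnar1* KO (-2.04) and had a log2 fold change of -0.74 (SE 0.288) in *Tlr7* KO.

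Markers of other cell types were counted in the same fits. Of all genes tested, 17.4% fell and 15.3% rose in *Tlr7* KO, and 12.4% fell and 6.76% rose in *Ifnar1* KO. All 7 B cell markers fell in both KO groups (medians -3.27 and -4.22), from a summed 68.6 to 240.0 CPM in WT to 4.63 to 43.9 in *Tlr7* KO and 2.01 to 17.4 in *Ifnar1* KO. *Ms4a1* and *Pax5* had no count in *Ifnar1* KO 3. Of 5 NK cell markers, which matter because NK cells also use CD247, LCK, ZAP70, LAT, LCP2 and CD2, 3 fell in *Tlr7* KO and 5 in *Ifnar1* KO. Their sum was 3.12 to 9.02 CPM in WT, 1.19 to 3.69 in *Tlr7* KO and 0.167 to 1.01 in *Ifnar1* KO, where *Klrk1*, *Ncr1* and *Klre1* each had no count in *Ifnar1* KO 3. Myeloid markers fell in 4 of 7 cases in each KO group (226 to 400 CPM summed in WT). Mast cell markers, 9.06 to 17.5 CPM in WT, fell in 1 of 6 tested (*Kit*, *Tlr7* KO, -0.59), a share close to the 17.4% of all genes. *Fcer1a* was at or near 0 in all groups. Of 2 platelet genes tested, *Itga2b* rose in *Tlr7* KO (log2 1.13). Gland epithelial markers summed to 2720 to 3800 CPM in WT and 6060 to 6920 in the KO groups, with 4 of 9 rising and 1 falling in *Tlr7* KO and 2 rising and 1 falling in *Ifnar1* KO. In the KO groups the sum was mostly *Lpo*, and the median log2 fold change of this list was 0.30 and 0.27. The part of these other cells in the fold changes of the 9 genes was not tested.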

How the data were processed

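Whole lacrimal gland RNA of 11 male NOD mice was sequenced, 1 library per mouse. The authors quantified reads with salmon against the mouse transcriptome (mm10) and summed them to genes with tximport, and deposited these estimated counts as whole numbers for 19058 genes. Although its name says normalized, the totals of its columns are unequal and it was read as unnormalized. Counts for 39017 genes were also deposited, from HISAT2 2.1.0 alignments (per the submitters' processing notes; the counting tool is not given in the sources used here) and this second table served as an alternative. It has 1 column named as a further *Ifnar1* KO mouse that matches no sample and was not used. Whether this is the mouse the study dropped is not given in the sources used here. Whether counting used strand is not given, so reads of *Cd3e*, *Cd247* and *Lcp2* from exons shared with genes on the other strand cannot be told apart.

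The test covered every gene whose counts in the 3 WT mice added up to 30 or more. WT is the group where the 9 genes are high, but their WT sums far exceed this limit and they passed edgeR's own filter too. Each pair of groups was fitted on its own, with TMM scaling and the two-sided quasi-likelihood test of edgeR, in R 4.3.3 and edgeR 4.0.16, and with Benjamini-Hochberg adjustment over all genes tested. DESeq2 1.42.0 was an alternative, and the script was tested on simulated data. CPM used TMM factors. CPM per kb used GENCODE M21 exon unions. Ratios to *Cd3e* used log2 CPM with a prior count of 2 and exact permutation tests over mice. Alternatives were other scalings, filters, tools, tables, thresholds, prior counts and reference genes, a replicate block, all mice in a single fit, and leaving out each mouse. The labels give no batch, and the p-values measure the spread between mice. Floors of 3 counts cover counting error only.

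The text names the 9 genes, *Tlr7*, *Ifnar1*, *Ptprc*, the 3 most abundant genes of each list, all CD2 partners and relatives, and the 5 genes of most similar pattern. Some genes that this rule names are not reported here. The members and lists were chosen with earlier results of these data known. *Trdc* and the *Tcrg* constant genes, listed as gamma delta T cell markers, were not analysed here.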

Additional observations from a re-analysis of the deposited data

Results flagged for a closer look

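*Tlr7* KO 2 stood apart from the other 4 *Tlr7* KO mice for 3 genes. The gap between this mouse and the nearest other mouse, divided by the range of the group, was 0.775 for *Lck*, 0.728 for *Cd3g* and 0.723 for *Cd2*, above the critical value of 0.71 for groups of 5. Chance puts about 1 in 20 groups above it, and 17 were examined on measures that share the same 5 mice. The summed B cell markers were also highest in this mouse, at 43.9 CPM against 4.63 to 16.9 CPM in the other *Tlr7* KO mice. All 9 genes remained DE between WT and *Tlr7* KO without this mouse, where 30.8% of all genes were called.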

How the results depend on the processing

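All 9 genes were lower in both KO groups than in WT under every alternative run, and all 9 passed under DESeq2, RLE size factors, library size only, both other filters, a single fit of all 11 mice and the second count table. In these settings 22.3% to 33% of all genes passed in *Tlr7* KO and 9.61% to 36.8% in *Ifnar1* KO. At adjusted p under 0.01, 1 of 9 members and 19 pathway genes passed in *Tlr7* KO and 0 and 0 in *Ifnar1* KO, where 14.1% and 0.00718% of all genes did. With library size only, the median over all genes moved from -0.037 to -0.536 in *Tlr7* KO and from -0.017 to -0.312 in *Ifnar1* KO, and the members' median from -1.89 to -2.49 and from -2.99 to -3.36. With single mice left out, 2 to 9 members and 21 to 46 pathway genes passed in *Tlr7* KO, and 0 to 9 and 0 to 43 in *Ifnar1* KO. Of all genes, 20.2% to 48.9% and 0.0% to 34.4% passed in these fits. Between the KO groups, 0 to 1 members and 0 to 6 pathway genes passed with single mice left out, and 0 and 0 with library size only, in the single fit of all mice and at adjusted p under 0.01. The matching shares of all genes were 0.61% to 6.29%, 1.22%, 0.667% and 0.215%. The log2 fold change of *Cd2* between the KO groups ranged from -0.22 to 1.63 with single mice left out. It reversed without *Ifnar1* KO 3 (-0.02) and without *Tlr7* KO 2 (-0.22). Ratios to *Cd3e* without overlap numbered 1 to 2 in *Tlr7* KO, 3 to 5 in *Ifnar1* KO and 1 to 1 between the KO groups with single mice left out. In these fits 15.9% to 85.6%, 80.1% to 95.6% and 1.51% to 79.0% of all genes did not overlap. The share of 79.0% was that without *Ifnar1* KO 2. With *Ptprc* as the reference, ratios without overlap numbered 3 in *Tlr7* KO, 2 in *Ifnar1* KO and 0 between the KO groups. There 42.6%, 92.9% and 2.35% of all genes did not overlap. With a prior count of 0.5, such ratios of members numbered 1 in *Ifnar1* KO (79.2% of all genes). Between the KO groups the number was 0 with a prior count of 5 (1.36% of all genes) or with the second table (1.26%).

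Mice with the same number did not deviate together in either comparison with WT (correlations of -0.44 to 0.0305), and the labels name no pairing. The fits with the replicate number as a block kept only mice whose number occurs in both groups. *Tlr7* KO 4 and *Tlr7* KO 5 were therefore left out of both block fits with *Tlr7* KO. Changes in those fits come with fewer mice as well as with the block. With the block, 0 members and 0 pathway genes passed in either comparison with WT (adjusted p of the members 0.192 to 0.261 and 0.117 to 0.157), where 17 and 0 of all 13937 genes passed. Between the KO groups the correlations were 0.0641, 0.34 and 0.26, each mouse correlating best with its own number, and with the block 5 members (*Cd247*, *Cd3g*, *Lat*, *Lck*, *Lcp2*) and 10 pathway genes passed, where 533 of all genes did, against 250 without the block. The cause of these changes was not tested. Values at or under 3 counts, those of 3 members in *Ifnar1* KO 3, have little counting precision.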
